A study of Homo sapiens with 66 samples.

Results

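The subject of this report is the HOXA cluster of H9 human embryonic stem cell derivatives: HOXA2, HOXA3, HOXA4, HOXA5, HOXA6, HOXA7, HOXA9, HOXA10 and HOXA11, followed in their order along the cluster. These 9 genes were picked by name, by matching the Ensembl identifiers of the count tables to gene symbols, and they are 9 of the 60603 genes in those tables. Expression was measured by bulk RNA sequencing in 66 libraries, 3 for each of 22 groups that follow the cells from pluripotency through neuromesodermal progenitors to spinal cord neural progenitor cells and motor neurons. The groups were hESC, the undifferentiated H9 cells; hNMP-D1 to hNMP-D4, 1 day in mTeSR medium and then SB431542, Dorsomorphin, FGF2 and CHIR99021; NeuDet-D1 to NeuDet-D6, the neural determination stage, which kept these agents and added FGF8 and Compound E; hSCNPC-P5, P10, P20, P30 and P40, progenitors passaged 5 to 40 times with Purmorphamine, SB431542 and CHIR99021; and hMN-D6, D12, D18, D24, D30 and D42, motor neuron cultures kept 6 to 42 days with Purmorphamine, Compound E, BDNF, GDNF and NT-3. By the study's methods, cells were also dissociated and replated at the start of NeuDet, and its medium held more FGF2 and CHIR99021 than that of hNMP. Every group came from the same H9 line. Days in a new medium, its agents and doses and the replating change together, so they cannot be told apart. Nothing in the labels tells separate cultures from repeat libraries of one culture within a group, so the p-values measure the spread between libraries, which may be technical.

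HOX genes encode homeodomain transcription factors that give cells along the head-to-tail axis of the embryo their positional identity. Within a cluster, the genes lie in the order in which they are switched on and in which their domains follow each other along the axis, so that low-numbered genes mark the hindbrain and neck and high-numbered genes mark the trunk and tail. Wnt and FGF signals together with the CDX factors open the middle of the clusters in neuromesodermal progenitors, retinoic acid favours the low-numbered end, PBX and MEIS proteins bind DNA together with HOX proteins, and Polycomb complexes keep unused stretches of a cluster silent.

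The 9 genes lie on the minus strand of chromosome 7 and span chr7:27100354-27185232 (hg38), a stretch of 84.9 kb with HOXA2 at the lowest and HOXA11 at the highest coordinates. The promoter table of RefSeq for GRCh38.p14 held windows for 8 of the 9 genes, 15 windows in all, each read over the 250 bases before a transcript start. They were searched on both strands for TTTATG, the core letters bound by CDX factors, for CTTTGA, the core of TCF/LEF sites through which Wnt signals act, and for TGATTNAT, a site of HOX proteins paired with PBX. Of all 35116 promoters of the table in the same window length, 9.64% held TTTATG, 11.2% held CTTTGA and 2.48% held TGATTNAT. Windows of HOXA2, HOXA6 and HOXA9 are shown because they stand for the 3 patterns described here: HOXA2 is at the end of the cluster that was high in late passages, HOXA6 is in the middle, and HOXA9 had the widest swings. Each is printed 5′ to 3′ on the minus strand, with the letters of a match in capitals.
HOXA2 promoter, chr7:27102684-27102933: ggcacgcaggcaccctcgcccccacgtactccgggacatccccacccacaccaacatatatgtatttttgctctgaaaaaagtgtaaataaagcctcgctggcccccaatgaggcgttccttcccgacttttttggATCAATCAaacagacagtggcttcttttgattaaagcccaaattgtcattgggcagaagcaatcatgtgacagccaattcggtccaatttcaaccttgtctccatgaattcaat
HOXA6 promoter, chr7:27147775-27148024: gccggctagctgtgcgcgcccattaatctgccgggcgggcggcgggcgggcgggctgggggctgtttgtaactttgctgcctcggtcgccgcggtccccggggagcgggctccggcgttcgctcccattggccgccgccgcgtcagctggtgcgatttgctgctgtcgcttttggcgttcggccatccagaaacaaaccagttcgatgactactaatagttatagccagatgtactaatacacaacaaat
HOXA9 promoter, chr7:27165538-27165787: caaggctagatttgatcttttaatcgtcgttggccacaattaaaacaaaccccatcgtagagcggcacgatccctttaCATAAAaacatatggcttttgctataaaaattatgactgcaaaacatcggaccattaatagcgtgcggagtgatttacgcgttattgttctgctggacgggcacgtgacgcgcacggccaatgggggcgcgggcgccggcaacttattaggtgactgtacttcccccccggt
The capitals in the HOXA2 window are a TGATTNAT match read on the other strand, at positions -114 to -107 from the start, and those in the HOXA9 window are a TTTATG match read on the other strand, at positions -172 to -167. The HOXA6 window held none of the 3 motifs, and no match overlapped another in these windows. GC content was 47.2% in the HOXA2 window, 62.0% in the HOXA6 window and 48.8% in the HOXA9 window, with 8, 27 and 20 CpG dinucleotides, against medians of 58% and 11 over all promoters of the table. A further window, that of the longest HOXA3 transcript at chr7:27152584-27152833, held TTTATG at 3 places and lies wholly within an exon of the antisense transcript HOXA-AS3. A window of HOXA10, at chr7:27179862-27180111, held CTTTGA read on the other strand, at positions -28 to -23, and lies wholly within annotated exons. The remaining windows held none of the 3 motifs. These matches describe letters and no binding was measured.

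Library totals ran from 14142238 to 40204753 counts, with a median of 20676228. Levels are given as CPM, each count relative to the library's total after TMM scaling over all 66 libraries, as mean ± SD over 3 libraries unless each library is listed. At this depth, 0 counts in the 3 libraries of a group allow a level of up to 0.0285 to 0.0666 CPM, depending on the group, for counting error only. The labelled stages were set against marker genes, with 1 CPM in all 3 libraries as a mark. All 5 pluripotency markers reached it in hESC and all 5 neuromesodermal markers in hNMP-D4. All 5 neural progenitor markers reached it in hSCNPC at every passage and all 6 motor neuron markers in hMN-D6. All 5 pluripotency markers also reached it in hNMP-D1 to hNMP-D4, and all 5 neuromesodermal markers on every NeuDet day. The sum of the neuromesodermal markers was 1573 to 1624 CPM in NeuDet-D6 against 458 to 772 CPM in hNMP-D4. In NeuDet-D6, 3 of the 5 neural progenitor markers reached the mark and HES5 had no count. In hMN-D42, 5 of the 6 motor neuron markers stood at 1 CPM or more, the exception being LHX3 at 0.588 ± 0.140 CPM. Among the 198 pairs of a HOXA gene and a group, 81 had a mean of at least 5 CPM, and in these the SD was between 0.8% and 21.6% of the mean, with a median of 5.77%.

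The 9 genes differed in the stage of their highest level. HOXA2, HOXA3 and HOXA4 had their highest levels in late-passage progenitors, at 73.2 ± 0.978 CPM in hSCNPC-P20, 115 ± 1.98 CPM in hSCNPC-P40 and 12.3 ± 0.570 CPM in hSCNPC-P40. HOXA5, HOXA9 and HOXA10 had theirs in hMN-D6, at 28.1 ± 0.578, 96.2 ± 3.94 and 4.88 ± 0.547 CPM. HOXA6 was highest in NeuDet-D4, at 8.93 ± 0.838 CPM, and HOXA7 in NeuDet-D6, at 46.8 ± 3.02 CPM. The libraries of the highest group overlapped those of the next for HOXA6 (hMN-D6, mean 7.54 CPM) and HOXA10 (NeuDet-D6, mean 4.58 CPM). The stage of the highest level is therefore not resolved for HOXA6 and HOXA10. HOXA7 overlapped within NeuDet, with NeuDet-D4 at a mean of 42.4 CPM. HOXA11 was never above 1 CPM in any library and its highest mean was 0.250 ± 0.0991 CPM, in hMN-D42. When the 22 groups are ranked by the mean of a gene, 8 of the 21 neighbouring pairs overlapped between libraries for HOXA2, 9 for HOXA3, 17 for HOXA4, 12 for HOXA5, 16 for HOXA6, 12 for HOXA7, 11 for HOXA9, 17 for HOXA10 and 21 for HOXA11, so the order of groups is best resolved for HOXA2 and HOXA3 and is not resolved for HOXA11.

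**Figure D1:**
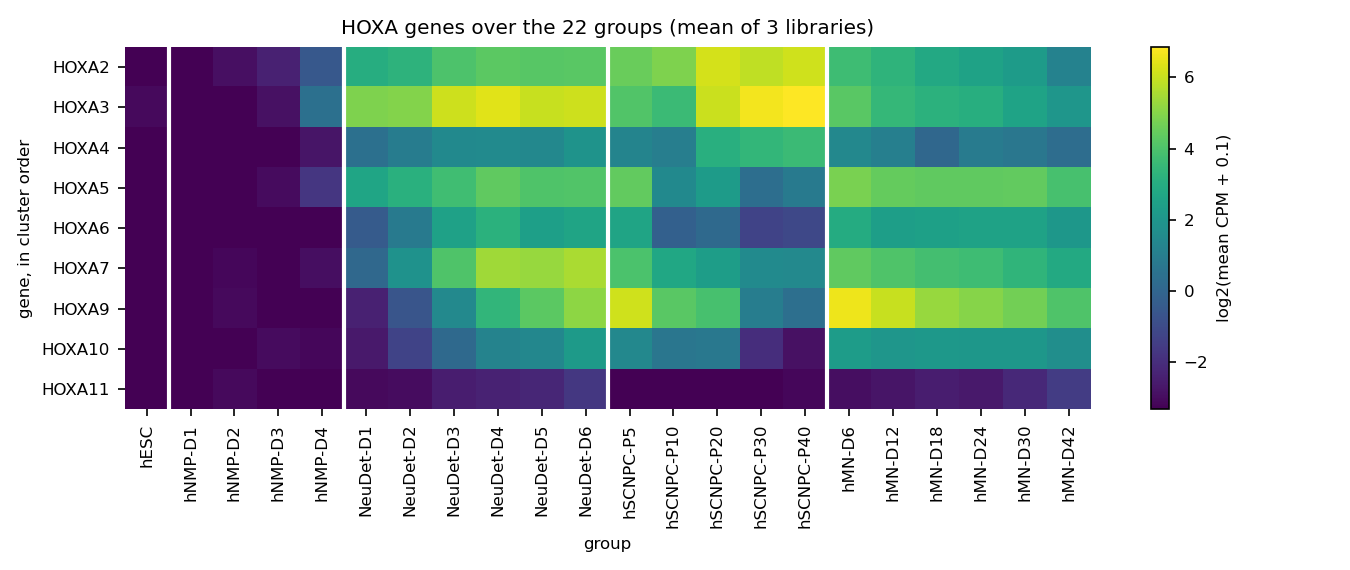
Mean CPM of the 9 HOXA genes (rows, in cluster order) in the 22 groups (columns, in culture order), as log2(mean CPM + 0.1) over 3 libraries a group, with white lines between the stages. From NeuDet-D1 to NeuDet-D6 the rows from HOXA6 to HOXA10 brighten most. In hSCNPC the colour fades below HOXA4 towards P40 while HOXA2, HOXA3 and HOXA4 brighten, and in hMN-D6 the brightest row is HOXA9.

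The first comparison asks when these 9 genes came on. From hESC to hNMP-D3 they were at or near 0: over 12 libraries all 9 genes together had 14 counts, no gene had more than 2 in a library, and hESC held 1 count, of HOXA3. In hNMP-D4, HOXA2, a hindbrain gene, had 18, 10 and 7 counts in replicates 1, 2 and 3, which is 0.945, 0.530 and 0.294 CPM. HOXA3, active in the hindbrain and neck, had 50, 15 and 7 counts, or 2.62, 0.794 and 0.294 CPM. HOXA5, a gene of the lower neck and upper trunk, had 7, 3 and 2 counts, or 0.367, 0.159 and 0.0840 CPM. Replicate 1 was the highest library for all 3 genes, and none overlapped the hESC libraries. A gene was called higher or lower where its p by edgeR's quasi-likelihood test, adjusted over all genes tested, was under 0.05. Against hESC, 3 of the 9 genes were higher and 0 lower, where 26.7% of the 21597 genes tested were higher and 27.6% lower, and HOXA11 was not tested because its counts were too low. HOXA2 was at least 10-fold higher (edgeR adjusted p = 3.72e-08), HOXA5 at least 3.44-fold higher (adjusted p = 0.000383), both measured against a floor of 3 counts over the hESC group, and HOXA3 was 61.9-fold higher from 72 against 1 counts, with a 95% counting interval from 10.8 to 2480 (adjusted p = 2.22e-06). The count of 3 was the same when any replicate number was left out. These genes were tested only because the model also held later groups, since with the 2 groups alone no member passed the filter on low counts. Without replicate 1 the fitted log2 difference was 6.58 rather than 5.61 for HOXA3 and 4.49 rather than 5.22 for HOXA5. The other 5 genes tested had 3 counts or fewer in hNMP-D4. In bulk RNA, more cells with a transcript and more transcript per cell cannot be told apart, here and in each result that follows.

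Most of the 9 genes were higher on NeuDet-D1 than in hNMP-D4. NeuDet-D1 was the first day after replating, in the medium with FGF8, Compound E and higher doses of FGF2 and CHIR99021. HOXA3 was then the highest of them per kb of exon, at 6.75 ± 0.194 CPM per kb, with HOXA5 at 3.61 ± 0.153 and HOXA2 at 3.43 ± 0.357, which did not differ beyond their spread. With the length of the canonical transcript, chosen after seeing the data, their order was reversed, at 3.72 ± 0.158 for HOXA5 and 4.75 ± 0.495 for HOXA2. HOXA2 reached 8.89, 7.90 and 7.24 CPM in the 3 NeuDet-D1 libraries, HOXA3 reached 29.993, 28.9 and 28.4 CPM, and HOXA5 reached 6.17, 5.97 and 6.49 CPM, all far above every hNMP-D4 library. HOXA4 stood at 1.27, 1.07 and 1.43 CPM, HOXA6 at 0.596, 0.734 and 0.649 CPM and HOXA7 at 0.959, 0.826 and 1.14 CPM. HOXA9, a gene of the lower trunk, had 8, 0 and 2 counts. Of the 9 genes, 7 were higher than in hNMP-D4 and 0 lower, where 25.4% of all genes tested were higher and 30.5% lower. The log2 difference was 3.78 ± 0.19 (SE) for HOXA2, 4.59 ± 0.21 for HOXA3 and 4.93 ± 0.26 for HOXA5 (edgeR adjusted p = 5.41e-23, 4.86e-20 and 3.52e-21). Replicate 1 held 50 of the 72 counts of HOXA3 in hNMP-D4, and without it the log2 difference was 5.78 for HOXA3, 5.67 for HOXA5 and 5.45 for HOXA4. HOXA4 was 25.8-fold higher with a counting interval from 8.64, HOXA7 29.9-fold with an interval from 8.07, and HOXA6 at least 13.5-fold. The call of HOXA9, at least 2.02-fold higher with adjusted p = 0.00791, was lost when replicate 1 was left out (adjusted p = 0.226, with 0.00565 to 0.226 over its 10 alternatives). Its NeuDet-D1 libraries, 1 of them without a count, overlapped those of hNMP-D4, which had none. HOXA10 was not called (adjusted p = 0.213). HOXA9, counted among the 7, and HOXA10 were tested only because the model also held later groups. With the 2 groups alone neither passed the filter on low counts.

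Over the days of NeuDet the genes reached a set level in the order of the cluster, several of them on the same day. Taking 1 CPM in all 3 libraries as a mark, HOXA2, HOXA3, HOXA4 and HOXA5 reached it on NeuDet-D1. HOXA6 and HOXA7 followed on NeuDet-D2, HOXA9 on NeuDet-D3 and HOXA10 on NeuDet-D4. The mark takes no account of gene length, and HOXA7 was close to it on NeuDet-D1, at 0.974 ± 0.155 CPM. Levels did not follow the cluster order, with HOXA5 at 6.21 ± 0.263 CPM on NeuDet-D1 against 1.26 ± 0.179 CPM for HOXA4. HOXA7, a trunk gene, stood at 3.97, 3.78 and 2.90 CPM on NeuDet-D2, at 18.7, 15.8 and 15.4 CPM on NeuDet-D3, at 41.997, 41.2 and 43.997 CPM on NeuDet-D4 and at 46.6, 49.9 and 43.8 CPM on NeuDet-D6. HOXA9 went through 0.718, 0.429 and 0.502 CPM on NeuDet-D2, 3.18, 2.70 and 2.17 on NeuDet-D3, 10.1, 10.7 and 9.99 on NeuDet-D4, 19.6, 20.5 and 18.3 on NeuDet-D5 and 39.6, 35.2 and 29.6 on NeuDet-D6, with no overlap between any of these days. HOXA10, next to it on the cluster, was at 2.25, 2.25 and 2.28 CPM on NeuDet-D4 and at 5.29, 4.59 and 3.86 CPM on NeuDet-D6. HOXA11 had 10, 3 and 7 counts on NeuDet-D6.

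**Figure D2:**
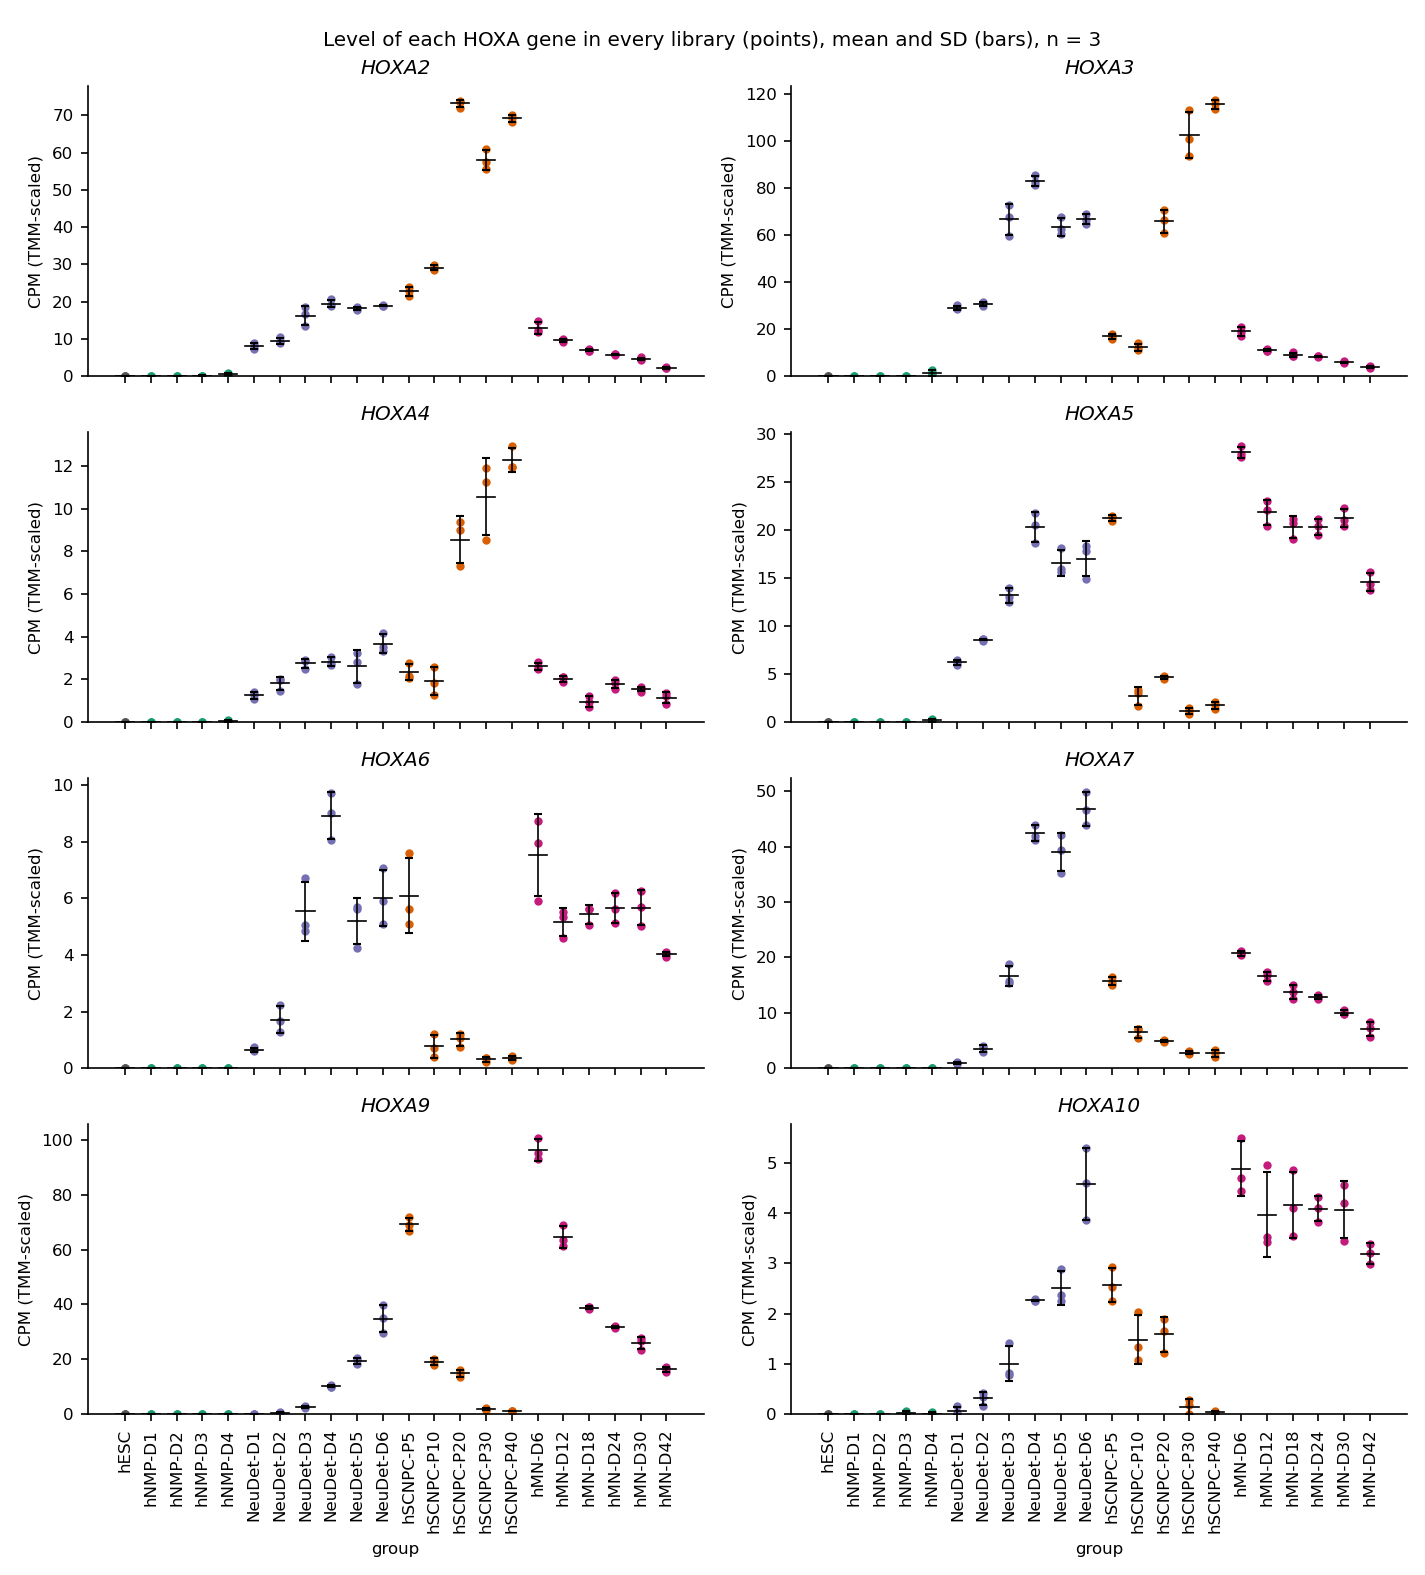
CPM of 8 HOXA genes, 1 panel a gene, in each of the 66 libraries (points, coloured by stage), with the mean and SD of each group in black and a linear axis that starts at 0. HOXA2, HOXA3 and HOXA4 have their highest means in late hSCNPC passages, HOXA6 and HOXA7 in NeuDet, and HOXA5, HOXA9 and HOXA10 in hMN-D6. For HOXA6 and HOXA10 the libraries of the highest group overlap those of a group of another stage.

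Between NeuDet-D1 and NeuDet-D6, 8 of the 9 genes were higher and 0 lower, where 26.3% of all genes tested were higher and 28.3% lower. The difference was smaller in HOXA2 to HOXA5 than in HOXA6 to HOXA10. It was 1.21 ± 0.10 on the log2 scale for HOXA2, 1.17 ± 0.12 for HOXA3, 1.51 ± 0.21 for HOXA4 and 1.43 ± 0.13 for HOXA5, then 3.16 ± 0.23 for HOXA6, 5.56 ± 0.14 for HOXA7, 8.38 ± 0.23 for HOXA9 (edgeR adjusted p = 5.66e-32) and 5.94 ± 0.40 for HOXA10 (adjusted p = 1.73e-17). The last 2 rest on 10 and 7 counts in NeuDet-D1, most of them in replicate 1, and without that replicate they were 9.77 and 7.63, both still called. HOXA3 did not climb evenly, with a mean of 82.9 CPM on NeuDet-D4 and libraries at 67.7, 60.4 and 62.4 CPM on NeuDet-D5, and HOXA6 was at 9.73, 8.05 and 9.01 CPM on NeuDet-D4 against 5.10, 5.92 and 7.07 CPM on NeuDet-D6. The antisense transcript HOXA-AS3 covers 62.5% of the exon bases of HOXA7 and 39.3% of those of HOXA6, and it stood at 318 ± 7.07 CPM in NeuDet-D6 against 20.7 ± 0.788 CPM in NeuDet-D1. Whether reads were counted by strand is not given in the sources used here, and without strand the reads of such a pair cannot be told apart where they overlap. The exons of HOXA2 and HOXA5 overlap no other gene, and for HOXA3, HOXA4, HOXA9, HOXA10 and HOXA11 the overlapped share was 19.8%, 47.8%, 27.0%, 26.3% and 27.2%.

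The change from NeuDet-D6 to the passaged cells of hSCNPC-P5 moved the 9 genes in both directions. HOXA9 was at 71.7, 68.9 and 66.8 CPM in hSCNPC-P5, above all NeuDet-D6 libraries, while HOXA3 was at 15.8, 16.7 and 18.03 CPM against 66.4, 64.8 and 69.1 CPM, and HOXA7 at 16.5, 15.0 and 15.6 CPM. Of the 9 genes, 3 were higher and 4 lower, where 28.8% of all genes tested were higher and 30.6% lower. HOXA9 was higher by 1.00 ± 0.12 on the log2 scale (edgeR adjusted p = 3.41e-10), HOXA3 fell by 1.97 ± 0.14 (adjusted p = 4.06e-15) and HOXA7 fell by 1.56 ± 0.11 (adjusted p = 1.82e-17), and these 3 calls held under every alternative run. HOXA-AS3 fell with HOXA7, to 5.72 ± 1.08 CPM. The smaller differences were less stable. HOXA2, higher by 0.28, was called at 0.0111 but not without replicate 1 or replicate 2 (0.125 and 0.0905, with 0.00091 to 0.125 over its 11 alternatives), and HOXA5, higher by 0.34, was called at 0.0195 but not without replicate 1 or replicate 2 (0.242 and 0.0864, with 0.00363 to 0.242 over its alternatives), so that 1 gene rather than 3 was higher when either of those numbers was left out. HOXA4, with a log2 difference of -0.63, lost its call without replicate 3 (0.109, range 0.004 to 0.109), and HOXA10, at -0.82, without replicate 1 (0.0529, range 0.00117 to 0.0529). HOXA6 stood at 6.11 ± 1.32 CPM against 6.03 ± 0.988 CPM and was not called (adjusted p = 0.891).

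Between passage 5 and passage 40 the 9 genes parted at HOXA4. HOXA2, HOXA3 and HOXA4 were higher at passage 40 and HOXA5, HOXA6, HOXA7, HOXA9 and HOXA10 were lower, so 3 genes rose and 5 fell, where 22.8% of all genes tested were higher and 24.1% lower. In none of these 8 genes did the libraries of the 2 passages overlap. All 8 calls held when any replicate number was left out and under the other scalings, filters and DESeq2.

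HOXA3 showed the widest rise. Its 3 libraries stood at 15.8, 16.7 and 18.03 CPM at passage 5, at 11.8, 10.9 and 14.0 at passage 10, at 66.4, 70.4 and 60.7 at passage 20, at 113, 101 and 93.6 at passage 30 and at 115, 117 and 113 at passage 40. Passage 40 was 6.89-fold above passage 5 (log2 difference 2.78 ± 0.14, edgeR adjusted p = 5.31e-19). HOXA2 was at 23.9, 21.6 and 22.8 CPM at passage 5, at 28.9, 28.6 and 29.8 at passage 10, at 72.1, 73.6 and 74.0 at passage 20, at 60.9, 57.6 and 55.7 at passage 30 and at 69.2, 68.1 and 70.2 at passage 40, which was 3.06-fold above passage 5 (1.61 ± 0.096, adjusted p = 4.96e-20). HOXA4, the quietest of the 3, was at 2.78, 2.19 and 2.06 CPM at passage 5, at 9.37, 9.005 and 7.30 at passage 20 and at 12.9, 11.96 and 11.96 at passage 40, 5.29-fold above passage 5 (2.40 ± 0.20, adjusted p = 4.54e-14). In all 3 genes the libraries of passage 20 lay well above those of passage 10.

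HOXA9 showed the widest fall among the genes with ample counts. It stood at 71.7, 68.9 and 66.8 CPM at passage 5, at 19.3, 17.9 and 20.3 at passage 10, at 13.7, 14.8 and 16.1 at passage 20, at 2.37, 1.58 and 1.69 at passage 30 and at 1.21, 1.14 and 1.30 at passage 40, 55.8-fold below passage 5 (log2 difference -5.80 ± 0.17, edgeR adjusted p = 1.78e-30). HOXA5 dropped earlier, from 21.5, 20.9 and 21.4 CPM at passage 5 to 3.07, 3.395 and 1.66 at passage 10, and stood at 4.77, 4.75 and 4.44 at passage 20 and at 2.09, 1.41 and 1.73 at passage 40 (-3.58 ± 0.17, adjusted p = 1.62e-23). HOXA6 went from 5.09, 7.59 and 5.64 CPM to 0.441, 0.336 and 0.303 (-4.07 ± 0.29, adjusted p = 9.22e-16), and HOXA7 from 16.5, 15.0 and 15.6 CPM to 3.36, 2.69 and 1.99 (-2.56 ± 0.14, adjusted p = 1.23e-20). HOXA10 had 137 counts in all at passage 5 and 2 at passage 40, 72.1-fold lower with a 95% counting interval from 19.6 to 602 (adjusted p = 1.73e-12). HOXA11 had no count from passage 5 to passage 30.

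**Figure D3:**
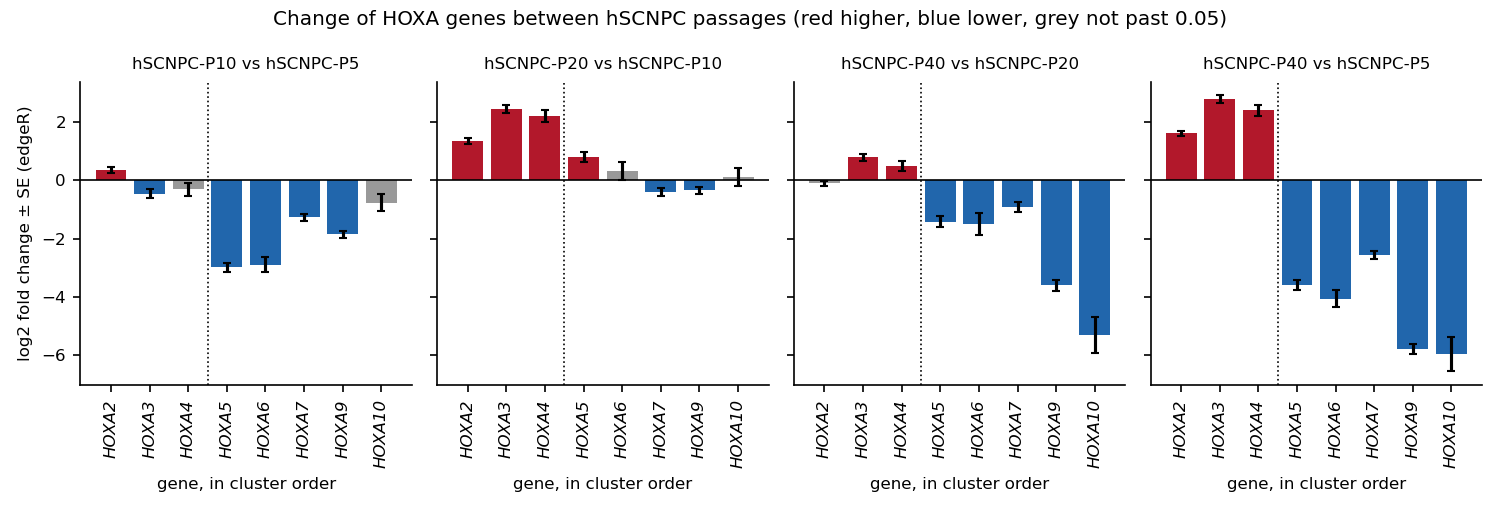
Log2 difference ± SE of 8 HOXA genes (bars from 0, in cluster order) between hSCNPC passages by edgeR, with red for higher, blue for lower and grey for genes not past the threshold of 0.05, and a dotted line between HOXA4 and HOXA5. In the panel of P40 against P5, the 3 bars left of the line stand above 0 and the 5 to its right below it.

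The single steps show when each gene moved. From passage 5 to passage 10, 1 gene was higher and 5 lower, where 7.8% of all genes tested were higher and 8.59% lower. HOXA5, HOXA6, HOXA7 and HOXA9 fell by 2.98 ± 0.16, 2.89 ± 0.25, 1.26 ± 0.12 and 1.85 ± 0.12 on the log2 scale, with edgeR adjusted p = 2.38e-20, 2.72e-12, 2.97e-11 and 2.41e-16, and without replicate 1 the difference of HOXA6 was -3.51. The other 2 calls, HOXA2 at 0.35 and HOXA3 at -0.46, were lost without replicate 2 (adjusted p = 0.201, range 0.000139 to 0.201, and 0.421, range 0.000238 to 0.421), which left 0 genes higher. HOXA10, at -0.77, missed the threshold (adjusted p = 0.0706) and passed it in 3 of its 11 alternatives, with 0.0153 to 0.392 over them.

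From passage 10 to passage 20, 4 genes were higher and 2 lower, where 10.9% of all genes tested were higher and 14.6% lower. HOXA2, HOXA3 and HOXA4 rose by 1.35 ± 0.094, 2.45 ± 0.14 and 2.21 ± 0.21 on the log2 scale (edgeR adjusted p = 4.99e-17, 1.88e-16 and 5.19e-12), and HOXA5 by 0.81 ± 0.18 (adjusted p = 0.000299). The 2 lower genes, HOXA7 at -0.39 (adjusted p = 0.0319) and HOXA9 at -0.34 (adjusted p = 0.0423), were both lost when any one of the 3 replicate numbers was left out, which left 0 lower, with 0.0157 to 0.168 and 0.00255 to 0.139 over their alternatives. From passage 20 to passage 40, 2 genes were higher and 5 lower, where 19.7% of all genes tested were higher and 20.1% lower. HOXA9 fell by 3.61 ± 0.18 (adjusted p = 4.86e-21), HOXA5 by 1.41 ± 0.19 (adjusted p = 2.82e-08), HOXA7 by 0.91 ± 0.16 (adjusted p = 8.42e-06) and HOXA6 by 1.504 ± 0.37 (adjusted p = 0.00107), and HOXA10 was 45.1-fold lower from 2 against 89 counts, with a 95% counting interval from 12.1 to 378 and a log2 difference of -5.30 that was -4.65 without replicate 1. HOXA3 rose by 0.80 ± 0.12 (adjusted p = 1.72e-06). The rise of HOXA4 by 0.51 lost its call without replicate 2 or replicate 3 (0.0639 and 0.0951, range 0.000315 to 0.0951), which left 1 gene higher, and the fall of HOXA6 lost its call without replicate 3 (0.0668, range 0.000521 to 0.0668). HOXA2 at 73.2 ± 0.978 and 69.2 ± 1.05 CPM was not called (adjusted p = 0.431).

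To compare levels between genes, CPM was divided by the length of each gene's exons in kilobases, and the sum over the 9 genes was set to 100% in each library. HOXA2, HOXA3 and HOXA4 made up 70.4 ± 1.49% of it in NeuDet-D1, 35.5 ± 1.42% in NeuDet-D6, 24.2 ± 0.882% in hSCNPC-P5, 58.7 ± 2.01% in hSCNPC-P10, 82.6 ± 0.707% in hSCNPC-P20 and 95.8 ± 0.636% in hSCNPC-P40. HOXA3 was the largest part in NeuDet-D1, with 43.6%, HOXA9 in hSCNPC-P5, with 36.7%, and HOXA2 in hSCNPC-P40, with 44.7%, next to 40.4% for HOXA3. The mean position, each gene's number weighted by its share, moved from 3.52 in NeuDet-D1 to 6.19 in hSCNPC-P5 and 2.81 in hSCNPC-P40. The sum itself was 62.1 ± 0.944 CPM per kb in hSCNPC-P5, 28.0 ± 0.862 in hSCNPC-P10 and 66.4 ± 0.809 in hSCNPC-P40. With only the exon bases that no other gene overlaps as length, the share of HOXA2 to HOXA4 was 26.6% in NeuDet-D6, 19.8% in hSCNPC-P5, 49.0% in hSCNPC-P10 and 93.9% in hSCNPC-P40, and the order of HOXA2 and HOXA3 at hSCNPC-P40 was reversed, with 40.9 ± 0.899% for HOXA3 and 36.3 ± 1.004% for HOXA2. The cluster was divided at HOXA4 with these values known, so the shares are a description and were given no test.

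**Figure D4:**
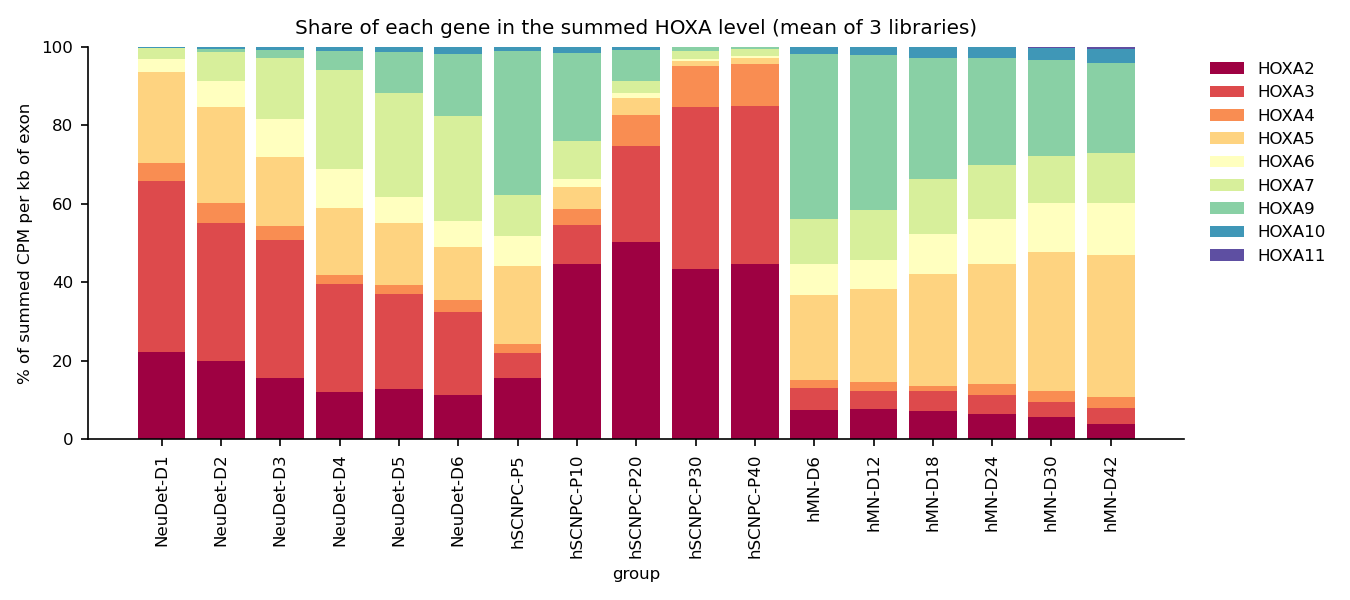
Share of each HOXA gene in the summed CPM per kb of exon of the 9 genes (percent, stacked bars from 0 to 100, means over 3 libraries) from NeuDet-D1 to hMN-D42. HOXA2 to HOXA4 together hold 24.2% at hSCNPC-P5, 95.8% at hSCNPC-P40 and 15.2% at hMN-D6.

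The other HOX clusters were set beside these genes. A list of 28 HOX genes outside the HOXA cluster had 21 genes tested between passage 40 and passage 5, of which 0 were higher and 16 lower, with a median log2 difference of -7.39 against -0.01 over all genes. The 9 HOXA genes held 9.77 ± 0.114% of the summed CPM of these 37 genes at passage 5, 10.45 ± 0.212% at passage 10, 40.3 ± 0.474% at passage 20 and 62.1 ± 0.727% at passage 40, while that sum went from 1605 CPM at passage 5 to 706, 434 and 327 CPM. Among the paralogs of the rising genes, HOXB2, the partner of HOXA2 in the hindbrain, was at 82.9 ± 4.32 and 79.3 ± 2.54 CPM at passages 5 and 40 and was not called (edgeR adjusted p = 0.733). HOXB3 stood at 75.6 ± 2.22 and 27.6 ± 2.35 CPM, HOXB4 at 16.1 ± 0.992 and 4.80 ± 0.520 CPM and HOXD4 at 34.3 ± 3.72 and 0.562 ± 0.143 CPM, and HOXC4 had 2299 counts at passage 5 and 0 at passage 40. HOXB9, paralog of HOXA9, was at 697 ± 15.48 and 0.414 ± 0.203 CPM.

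Genes that act with or on HOX clusters were counted from lists of 9 cofactors, 16 inducers and 18 chromatin regulators, beside the 22.8% of all genes tested that were higher and the 24.1% that were lower at passage 40. Between passage 40 and passage 5, 2 cofactors were higher and 2 lower of 9 tested, with PKNOX1 higher by 0.47 and PKNOX2 lower, at -1.23 on the log2 scale. Of 15 inducers tested, 3 were higher and 3 lower. SP5 and LEF1, a Wnt target and a Wnt effector, were higher by 6.50 and 1.98, and CYP26B1, which degrades retinoic acid, by 2.06, while CYP26A1, which does the same, stood at -6.25 and the retinoic acid receptor RARG at -2.36. Of 16 chromatin regulators tested, 6 were higher and 3 lower, among them the Polycomb subunit CBX7 at -3.43. The 6 higher ones, which included BMI1 and CTCF, differed by 0.26 to 0.47. Medians of these 3 lists were 0.09, -0.13 and 0.02 against -0.01 over all genes. Markers of other cells moved with passage as well. SOX10, a defining gene of neural crest, was at 4.72 ± 0.320 CPM at passage 5 and 0.158 ± 0.0893 CPM at passage 40 and FOXD3 at 0.903 ± 0.214 and 0.0367 ± 0.0636 CPM. TFAP2A was at 1.54 ± 0.0876 and 1.18 ± 0.119 CPM and TFAP2B at 7.69 ± 0.174 and 12.7 ± 0.189 CPM. Their part in the HOXA result was not tested.

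The next comparison asks at what levels the 9 genes stood in motor neurons. No library is labelled as the start of that differentiation, and the labels do not give the passage it began from, so hSCNPC-P10 stands for it and the other passages are given beside it. In hMN-D6, HOXA9 was at 101, 95.1 and 93.0 CPM, HOXA5 at 28.8, 27.6 and 27.9 CPM, HOXA7 at 21.2, 20.4 and 20.6 CPM and HOXA2 at 12.3, 14.8 and 11.7 CPM. Of the 9 genes, 6 were higher than in hSCNPC-P10 and 1 lower, where 38.5% of all genes tested were higher and 36.7% lower. HOXA5, HOXA6, HOXA7, HOXA9 and HOXA10 rose by 3.35 ± 0.11, 3.15 ± 0.20, 1.62 ± 0.10, 2.28 ± 0.059 and 1.64 ± 0.19 on the log2 scale (edgeR adjusted p = 5.13e-31, 9e-20, 3.39e-20, 6.68e-36 and 6.01e-11), HOXA3 by 0.59 ± 0.095 (adjusted p = 2.28e-07), and HOXA2 fell by 1.20 ± 0.086 (adjusted p = 8.01e-18). Without replicate 1 the rise of HOXA6 was 3.81. HOXA4, at 2.61 ± 0.164 against 1.92 ± 0.653 CPM, missed the threshold (adjusted p = 0.0605) and passed it in 3 of its 11 alternatives (0.0176 to 0.556).

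The choice of passage set the size of these differences. Against hSCNPC-P5 they were 0.40 for HOXA5, 0.40 for HOXA7, 0.48 for HOXA9 and 0.93 for HOXA10, which kept 4 genes higher, with HOXA2 at -0.81 the 1 gene lower, while HOXA3 at 0.18 and HOXA6 at 0.31 were not called. Against hSCNPC-P20, P30 and P40, HOXA3 was lower in hMN-D6, at -1.79, -2.43 and -2.60, and so was HOXA4, at -1.71, -2.01 and -2.23, so that 5 genes were higher and 3 lower. The absolute difference between hMN-D6 and a progenitor group was also averaged over the 9 genes, on log2(mean CPM + 1). It was 0.37 for hSCNPC-P5, 0.72 for NeuDet-D6, 1.37 for hSCNPC-P10, 1.75 for hSCNPC-P20 and 2.60 for hSCNPC-P40. The added 1 shrinks the differences of genes at low levels, so these averages are not on the scale of the edgeR differences. These comparisons share the hMN-D6 libraries.

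**Figure D5:**
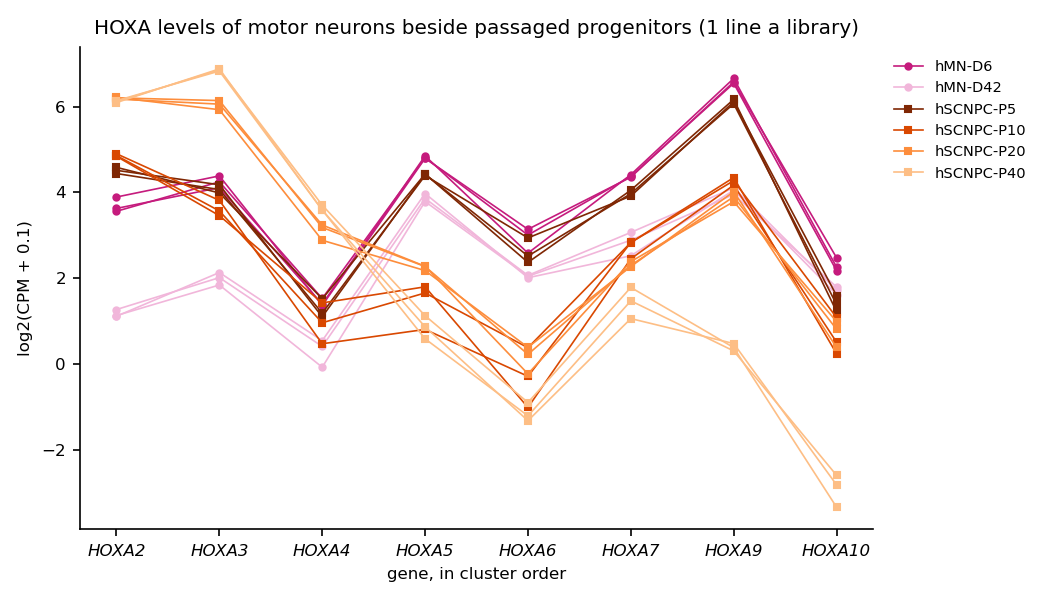
Level of 8 HOXA genes in cluster order, as log2(CPM + 0.1), with 1 line a library for hMN-D6 and hMN-D42 (circles) and for hSCNPC-P5, P10, P20 and P40 (squares). The hMN-D6 lines run close to those of hSCNPC-P5 and lie above those of hSCNPC-P40 from HOXA5 to HOXA10 and below them from HOXA2 to HOXA4.

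Within the motor neuron cultures no tested member passed as higher from day 6 to day 30 or from day 30 to day 42. From day 6 to day 30, 0 genes were higher and 7 lower, where 32.9% of all genes tested were higher and 30.5% lower. HOXA9 was at 39.1, 39.1 and 38.3 CPM on day 18 and at 27.8, 26.6 and 23.5 CPM on day 30, and it fell by 1.88 ± 0.054 on the log2 scale (edgeR adjusted p = 3.46e-33). HOXA3 fell by 1.68 ± 0.10, HOXA2 by 1.47 ± 0.10, HOXA7 by 1.03 ± 0.091 and HOXA4 by 0.74 ± 0.21, while HOXA5 fell by 0.39 ± 0.077, from 28.1 ± 0.578 to 21.2 ± 0.939 CPM. HOXA6, which fell by 0.41 ± 0.14, lost its call without replicate 2 or replicate 3 (0.155 and 0.161, range 0.000328 to 0.161). HOXA10, at 4.88 ± 0.547 and 4.07 ± 0.560 CPM, was not called (adjusted p = 0.154). From day 30 to day 42, 0 genes were higher and 6 lower, where 21.8% of all genes tested were higher and 19.9% lower. HOXA2 fell by 1.10 ± 0.13, to 2.07, 2.32 and 2.1002 CPM, HOXA9 by 0.67 ± 0.066, to 16.5, 17.2 and 15.4 CPM, and HOXA5 by 0.54 ± 0.082, to 15.6, 14.4 and 13.7 CPM. HOXA3, HOXA6 and HOXA7 fell by 0.60, 0.49 and 0.50, the call of HOXA6 being lost without replicate 1 (0.051, range 0.00188 to 0.051). HOXA10, at -0.34, was not called (adjusted p = 0.088), but was called without replicate 3 (0.0448, range 0.0448 to 0.417).

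In these cultures HOXA5 to HOXA11 held most of the summed level of the 9 genes. HOXA2 to HOXA4 held 15.2 ± 1.11% of the summed CPM per kb on day 6 and 10.7 ± 0.803% on day 42. HOXA9 had the largest share on day 6, with 42.1%, and HOXA5 on day 42, with 36.3%. Of the 28 other HOX genes, 20 were tested, of which 3 were higher and 15 lower on day 30 than on day 6, and the 9 HOXA genes held 13.55 ± 0.159% of the CPM of the 37 genes on day 6 and 20.1 ± 0.536% on day 42. Over the same time the sum of 4 mesenchymal markers reached 766 to 878 CPM on day 42, with COL1A1 at 673 ± 55.2 CPM against 36.3 ± 2.84 CPM on day 6, and SOX10 went from 2.24 ± 0.915 to 46.3 ± 2.66 CPM. The part of these other cells in the levels of HOXA genes was not tested.

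Noncoding neighbours within the cluster moved as well. HOXA-AS2, antisense to HOXA3 and HOXA4, stood at 11.1 ± 0.253 CPM at passage 5, 4.87 ± 0.712 at passage 10, 22.9 ± 1.69 at passage 20 and 27.4 ± 1.498 at passage 40, a rise of 1.31 on the log2 scale from passage 5 (edgeR adjusted p = 4.88e-06). HOXA-AS3, antisense to HOXA6 and HOXA7, was at 5.72 ± 1.08 and 0.418 ± 0.142 CPM at passages 5 and 40 (-3.72, adjusted p = 6.61e-20), and HOXA10-AS, antisense to HOXA9 and HOXA10, at 3.50 ± 0.743 CPM and no count. Outside the cluster, SKAP2, a gene of immune cell adhesion beyond its low-numbered end, was at 16.1 ± 1.06 and 12.8 ± 0.891 CPM at passages 5 and 40 (adjusted p = 0.0845) and had gone from 5.63 ± 0.744 CPM in hESC to 93.0 ± 3.00 CPM in NeuDet-D1. EVX1, a homeobox gene beyond the other end, was at 10.7 ± 1.48 CPM in NeuDet-D1 and 0.784 ± 0.331 CPM in NeuDet-D6, and was without counts at passage 40. HIBADH, a valine breakdown enzyme farther out, was at 17.97 ± 1.03 and 18.7 ± 1.63 CPM at passages 5 and 40.

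Across the 22 group means, on log2(CPM + 1), Pearson's r between genes was 0.90 to 0.95 for the 3 pairs within HOXA2 to HOXA4, 0.83 to 0.96 for the 6 pairs within HOXA5, HOXA6, HOXA7 and HOXA9, and 0.29 to 0.66 for the 12 pairs between the 2 sets. Groups share media and order in time, so these values are a description. Among 14190 genes searched, the one most like HOXA2 was SMOC1, which encodes a secreted BMP antagonist (r = 0.96), that most like HOXA3 was NKD1, a Wnt feedback inhibitor (0.95), and that most like HOXA4 was MMAB (0.93). HOXA5 was most like LINC03048 (0.94), HOXA6 most like MAML3, a Notch coactivator (0.94), HOXA7 most like FKBP7 (0.92) and HOXA9 most like RGS4, a regulator of G protein signalling (0.94).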

How the data were processed

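Cells of the H9 line were profiled by bulk RNA sequencing in 66 libraries. The authors deposited 2 tables of raw counts, one row a gene and not normalized. By the study's methods and the submitters' processing notes, reads were trimmed with fastp, aligned to hg38 with HISAT2 2.1.0 and assigned to genes of a GENCODE annotation with featureCounts 1.5.3. The annotation's release and the strand setting are not given in the sources used here. Both tables held the same 60603 Ensembl identifiers, of which 60261 have a symbol in GENCODE 44, and 4 of the 9 members carry the same identifier version there, so exon lengths and overlaps may differ from those counted. Library totals were 14142238 to 40204753 counts. Among 66 pairs of libraries of one group, 0 were identical. Chi-squared per degree of freedom over genes with at least 20 counts was 1.89 to 25.3.

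Tests used edgeR's robust quasi-likelihood fit after TMM scaling and filterByExpr (edgeR 4.0.16, limma 3.58.1, statmod 1.5.0, R 4.3.3), with 1 coefficient for each group. A first model held the 48 libraries up to hSCNPC-P40 and 21597 genes, and a second held 21 libraries, those of hMN and hSCNPC-P10, and 21175 genes. The study names no differential test for these data. P-values were adjusted by Benjamini-Hochberg over all genes of a model, and a threshold of 0.05 was used. The SE of a log2 difference was taken as its absolute value divided by the root of the F statistic. Folds against a group without counts use a floor of 3 counts over the group, and those against 1 to 3 counts have a 95% counting interval. Counting intervals and floors cover counting error only. Other steps used Python 3.11.15 (scipy 1.17.1, numpy 2.4.6, pandas 2.3.3, matplotlib 3.10.9). The fits were tested on simulated data.

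The members, the gene lists, the motifs and the comparisons were chosen with earlier results of these data known. All 9 members are described, and some genes of the lists are not reported here. The genes most like a member are the 3 with the highest Pearson's r on log2(CPM + 1) over the 22 group means among genes reaching 5 CPM, of which the first is named. Alternatives were RLE scaling, DESeq2 1.42.0, no filter, a filter at 1 CPM, 1 model of all 66 libraries, the 2 groups alone, another passage as start of the motor neurons, a replicate block and leaving out each replicate number. Every pair of same-numbered libraries deviated weakly together in hNMP-D4 against hESC (r = 0.152, 0.116 and 0.102). The same was seen in NeuDet-D6 against NeuDet-D1 (r = 0.193, 0.09 and 0.181). The block was kept as an alternative.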

Additional observations from a re-analysis of the deposited data

How the results depend on the processing

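Of 902 values of the 88 log2 differences of members under alternatives, 864 kept their direction and their side of the threshold, 25 lost the call, 7 gained one and 6 changed sign. RLE scaling, DESeq2 and the replicate block changed no call. With the replicate block, the numbers of genes higher and lower were the same as without it in all 11 comparisons, for example 3 higher and 5 lower between hSCNPC-P40 and hSCNPC-P5. Outside hNMP-D4 against hESC and NeuDet-D6 against NeuDet-D1, each comparison had a negative r for some pair of same-numbered libraries. Over all comparisons r ran from -0.174 to 0.207. Whether libraries of the same number share more than it is not given in the labels. The 6 changes of sign are those of HOXA3 (-1.79, -2.43 and -2.60) and HOXA4 (-1.71, -2.01 and -2.23) in hMN-D6 when hSCNPC-P20, P30 or P40 took the place of hSCNPC-P10, which moved the number of genes lower from 1 to 3. Leaving out a replicate number gave 1 to 3 genes higher in hSCNPC-P5 than in NeuDet-D6, 0 to 1 higher in hSCNPC-P10 than in hSCNPC-P5, 0 lower in hSCNPC-P20 than in hSCNPC-P10 in each case, and 1 to 2 higher in hSCNPC-P40 than in hSCNPC-P20. The other counts of members stayed within 1.5 times of those given. With RLE scaling the highest means of HOXA2, HOXA3, HOXA4, HOXA5 and HOXA9 were 69.6, 109, 11.6, 29.3 and 100.3 CPM. For hNMP-D4 against hESC, the 2 groups alone gave no value, since no member passed the filter. The same held for HOXA9 and HOXA10 in NeuDet-D1 against hNMP-D4. HOXA11 could be tested only without the filter. Exon lengths of the canonical transcript, an alternative chosen after seeing the data, gave HOXA2 to HOXA4 37.8% of the summed level per kb in NeuDet-D6, 25.0% in hSCNPC-P5 and 96.3% in hSCNPC-P40.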
